A study of Mus musculus with 6 samples.

Results

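A set of 16 transcripts stood far higher in 1 of 3 mutant heart libraries than in any of the other 5 libraries of the series. They were chosen by their values among the 38918 rows of the deposited expression table: at least 3 FPKM in conditional knockout replicate 1, and at least 4 times the highest of the other 5 libraries. FPKM is the number of sequenced fragments of a transcript scaled to its length and to all mapped fragments of the library. Of 10749 rows with at least 3 FPKM in that library, 40 met the fold criterion (0.372%). The rule then left out 24 rows by symbol (3 Hox genes, 17 predicted genes and 4 small RNAs), and 16 of 9952 rows remained (0.161%). These values chose the members, so they are given as a description and without a test.

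The series measured RNA of whole hearts from mouse embryos of strain background C57/BL6 at embryonic day 11.5. The conditional knockout embryos were Nfatc1Cre:Tie2 flox/flox, with Cre recombinase from Nfatc1, a gene of the endocardium, and with both alleles of Tie2 (Tek, the angiopoietin receptor) flanked by loxP sites. The control littermates were Tie2 flox/wild-type, so every embryo carried at least 1 floxed allele. RNA came from 18 hearts of each genotype, was pooled by genotype per the series text, and was portioned into 3 libraries per group. On that account the libraries of a genotype are not separate litters or animals, and a p-value here reflects library-to-library spread alone. Portions of 1 pool would be near alike, which the levels of the 16 transcripts in conditional knockout replicate 1 are not, so how many hearts stand behind each library is uncertain.

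A heart at this age is dissected from beside the pharyngeal arches, the foregut with its lung buds, and the body wall. In the foregut and its lung buds the epithelium makes the ligand Sonic hedgehog. The surrounding mesenchyme responds through Gli transcription factors and switches on Gli1 and the forkhead genes Foxf1 and Foxf2. The pharyngeal arches hold neural crest, mesoderm and endoderm, and use Tbx1 and the Dlx genes. In bulk RNA of a whole organ, more cells of a type and more RNA per cell cannot be told apart.

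The promoters of 6 members are shown as examples with more (Six2, Fendrr, Foxf2) and with fewer (Tbx1, Epcam, Moxd1) CpG dinucleotides. Each line gives the 250 bases before the RefSeq start of the gene (GRCm38.p6), read on the strand of the gene, with CpG dinucleotides in capitals. Fendrr, a long noncoding RNA, lies at chr8:121083111-121083360 on the minus strand, Foxf2 at chr13:31625566-31625815 on the plus strand, Six2 at chr17:85688255-85688504 on the minus strand, Tbx1 at chr16:18590672-18590921 on the minus strand, Epcam at chr17:87635729-87635978 on the plus strand and Moxd1 at chr10:24223267-24223516 on the plus strand.
Fendrr: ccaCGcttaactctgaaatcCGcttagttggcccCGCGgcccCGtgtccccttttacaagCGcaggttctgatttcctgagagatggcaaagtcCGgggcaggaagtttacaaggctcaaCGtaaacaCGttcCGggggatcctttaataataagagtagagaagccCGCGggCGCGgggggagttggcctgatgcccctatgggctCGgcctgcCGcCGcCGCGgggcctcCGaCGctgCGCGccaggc
Foxf2: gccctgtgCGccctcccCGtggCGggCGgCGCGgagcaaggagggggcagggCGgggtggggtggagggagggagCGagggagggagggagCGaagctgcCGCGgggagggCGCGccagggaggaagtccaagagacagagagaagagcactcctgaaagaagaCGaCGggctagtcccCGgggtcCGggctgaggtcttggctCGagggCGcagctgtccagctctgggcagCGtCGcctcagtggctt
Six2: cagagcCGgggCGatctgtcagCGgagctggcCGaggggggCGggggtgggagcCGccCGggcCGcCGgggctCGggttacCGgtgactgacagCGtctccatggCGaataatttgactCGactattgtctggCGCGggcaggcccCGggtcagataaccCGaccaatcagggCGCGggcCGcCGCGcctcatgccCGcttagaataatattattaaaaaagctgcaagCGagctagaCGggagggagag
Tbx1: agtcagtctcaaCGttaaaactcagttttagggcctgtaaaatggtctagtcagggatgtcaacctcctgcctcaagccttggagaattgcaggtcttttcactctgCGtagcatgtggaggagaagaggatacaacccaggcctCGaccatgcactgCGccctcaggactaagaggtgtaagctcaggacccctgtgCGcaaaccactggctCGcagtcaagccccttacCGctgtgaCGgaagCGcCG
Epcam: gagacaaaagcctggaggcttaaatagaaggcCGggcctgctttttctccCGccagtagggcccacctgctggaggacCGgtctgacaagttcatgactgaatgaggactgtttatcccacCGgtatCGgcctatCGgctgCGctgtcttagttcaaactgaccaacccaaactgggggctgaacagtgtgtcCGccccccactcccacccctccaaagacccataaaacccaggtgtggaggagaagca
Moxd1: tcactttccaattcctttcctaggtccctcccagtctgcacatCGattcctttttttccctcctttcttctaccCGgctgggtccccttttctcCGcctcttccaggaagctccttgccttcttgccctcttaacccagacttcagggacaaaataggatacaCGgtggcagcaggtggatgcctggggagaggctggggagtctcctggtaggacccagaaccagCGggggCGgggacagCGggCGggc

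Of the 16 members, 10 had a promoter in the RefSeq table. The 250 bases of Six2, Fendrr and Foxf2 held 26, 23 and 21 CpG, against a median of 6 over 27018 promoters, while Tbx1 held 10 and Epcam and Moxd1 held 8 each. A ratio of observed to expected CpG of at least 0.6 was met by 5 of the 10 (Ebf3, Fendrr, Foxf2, Gsc and Six2) and by 34.5% of all promoters. All 5 are genes of developmental regulators. The core GACCACCC bound by Gli factors was searched on both strands; it stood in none of the 10 windows and in 0.674% of all promoters. The forkhead motif TGTTTAC stood in 1, that of Fendrr, 129 bases before the gene start on the opposite strand, and in 3.06% of all promoters. TATAAA stood in 1, that of Gsc, and in 13.0% of all promoters. A match is a description of letters only.

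The depth of the libraries is not given and was not recovered. Where whole fragments are counted, genes of low value share a common ratio between a pair of libraries. The commonest ratio held 6.98% to 17.2% of genes in pairs without a replicate 1 library, but 1.17% to 3.28% in the 5 pairs with conditional knockout replicate 1. Replicate 1 of both groups thus stands apart from the other 4 libraries: control replicate 1 gave 1.24% to 1.32% with each of them. Against control replicate 1 alone, the 15 members above 0 elsewhere stood between 7.82-fold and 56.6-fold higher in conditional knockout replicate 1. Tek, the deleted gene, was at 3.38, 3.13 and 3.13 FPKM in the conditional knockouts and at 22.4, 25.7 and 16.6 FPKM in the controls, so the library that holds the members matched its genotype label. Its total was 531209 FPKM, within the range of the other libraries (481334 to 582261), and 13041 genes reached 1 FPKM in it, against 12647 to 12937 elsewhere.

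Low in every other library, the members were all at or above 3 FPKM in conditional knockout replicate 1. Their FPKM summed to 114 there, to 8.46 and 9.97 in conditional knockout replicates 2 and 3, and to 6.42, 5.63 and 6.68 in control replicates 1, 2 and 3. Of the 16, at most 2 reached 1 FPKM in any of the other 5 libraries. The median fold over the highest other library was 11.4 over the 15 members above 0 elsewhere, and 8 of them stood at 10-fold or more. Between 51.2% (Moxd1) and 93.4% (Foxf2) of the summed FPKM of such a member over all 6 libraries came from that 1 library. Of the 16 members, 14 are protein coding and 8 encode DNA-binding transcription factors.

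**Figure D1:**
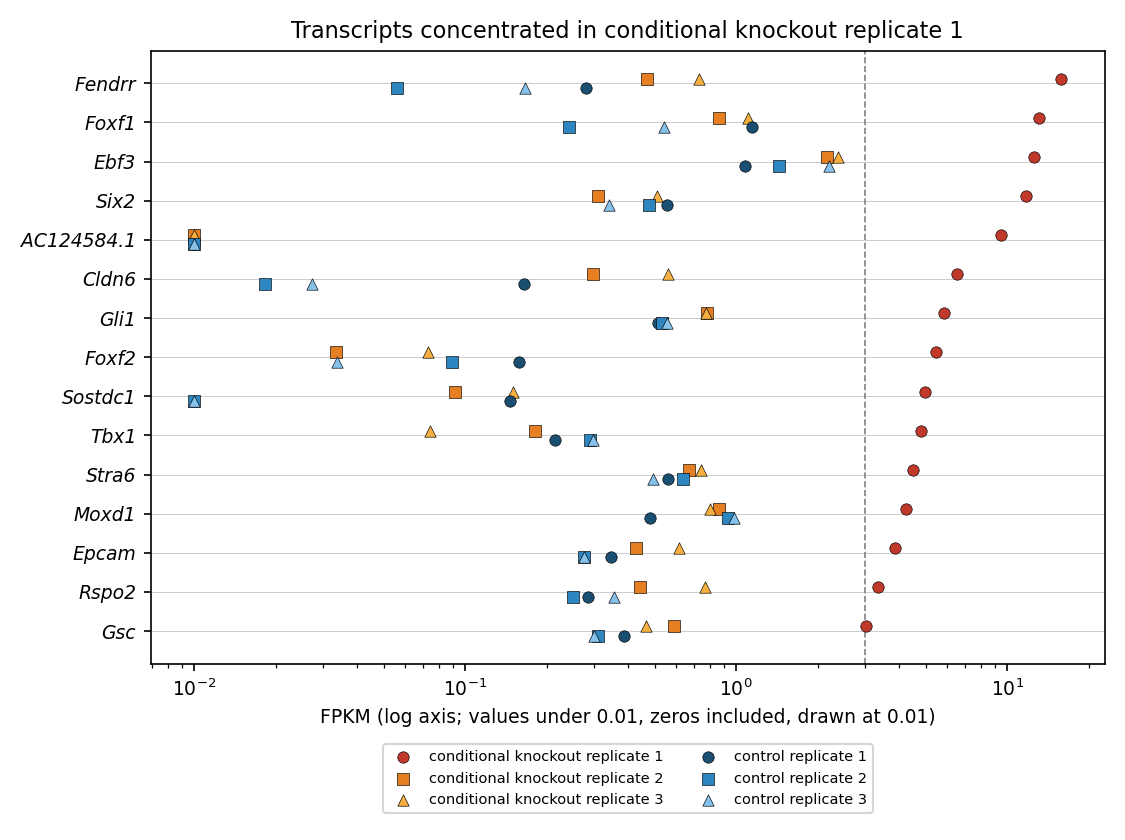
FPKM of 15 of the 16 members (rows) in the 6 libraries, on a log axis; each point is 1 library, conditional knockout points lie just above control points, and the dashed line marks 3 FPKM. Conditional knockout replicate 1 stands apart for every member drawn, from 15.8 FPKM for Fendrr to 3.01 FPKM for Gsc, and at most 2 members reach 1 FPKM in any other library.

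The highest member and its neighbour mark mesenchyme around the gut and lung. Fendrr, a long noncoding RNA of lateral mesoderm and lung mesenchyme in the mouse, lies on chromosome 8 from 121054882 to 121083110 (GRCm38). It had 15.8, 0.468 and 0.726 FPKM in conditional knockout replicates 1, 2 and 3, and 0.280, 0.0561 and 0.166 FPKM in control replicates 1, 2 and 3. Foxf1, a forkhead factor needed for lung and gut mesenchyme, lies 1275 bases away on the other strand, from 121084386 to 121088144. It had 13.1, 0.861 and 1.1 FPKM in the conditional knockout libraries, and 1.15, 0.242 and 0.543 FPKM in the controls. Both were high in the same single library and low in the other 5, by 21.8-fold and 11.4-fold over the highest of them.

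The next genes along chromosome 8 did not share this pattern. Mthfsd had 13.5, 10.4 and 9.19 FPKM in the conditional knockout libraries and 11.9, 14.0 and 13.4 FPKM in the controls, and Foxc2, a forkhead gene of mesenchyme, had 12.3, 8.13 and 6.64 FPKM in the conditional knockouts and between 9.77 and 15.0 FPKM in the controls. In both, conditional knockout replicate 1 lay within the range of the other libraries. Gm20388, a predicted gene annotated across this region, had 4.03, 21.2 and 18.3 FPKM in the conditional knockouts and 0.0406, 25.4 and 23.7 FPKM in the controls. Low in replicate 1 of both groups, it does not follow the genotype. These neighbours were named after their values were seen.

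Foxf2, the paralog of Foxf1 in gut and facial mesenchyme (chromosome 13, 31625816 to 31631403), showed the largest fold, 34.5 over the highest other library. It had 5.46, 0.0333 and 0.0728 FPKM in conditional knockout replicates 1, 2 and 3, and 0.158, 0.0898 and 0.0336 FPKM in control replicates 1, 2 and 3. Outside the 1 library it was close to 0 in both groups. Gli1, a transcription factor and transcriptional target of hedgehog signalling (chromosome 10, 127329882 to 127341974), had 5.85, 0.778 and 0.772 FPKM in the conditional knockouts, and 0.513, 0.531 and 0.553 FPKM in the controls. Foxf1 and Foxf2 each share 98 exon bases with a predicted miRNA gene on the other strand. The exons of Gli1 share 62 of 4995 bases with Arhgap9 on the other strand, which stood between 0.239 and 0.544 FPKM in all 6 libraries.

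Members with roles in the pharyngeal arches and head came next. Six2, a homeobox factor of nephron progenitors and of facial mesenchyme (chromosome 17, 85684277 to 85688274), had 11.7, 0.309 and 0.508 FPKM in the conditional knockout libraries, and 0.555, 0.478 and 0.338 FPKM in the controls. Tbx1, the T-box factor of pharyngeal endoderm and mesoderm and of the second heart field (chromosome 16, 18580979 to 18590671), had 4.80, 0.180 and 0.0739 FPKM in the conditional knockouts, and 0.214, 0.289 and 0.296 FPKM in the controls. For both, the other 5 libraries lay under 0.6 FPKM.

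Gsc, the goosecoid homeobox factor, which the arches express (chromosome 12, 104471209 to 104473330), had 3.01, 0.590 and 0.465 FPKM in the conditional knockouts, and 0.384, 0.311 and 0.298 FPKM in the controls. It is the member nearest to the minimum of 3 FPKM. Ebf3, a helix-loop-helix factor of neurons and mesenchyme (chromosome 7, 137193673 to 137314445), had 12.6, 2.16 and 2.38 FPKM in the conditional knockouts, and 1.08, 1.43 and 2.2 FPKM in the controls. Ebf3 was the only member with a mean of at least 1 FPKM over the other 5 libraries.

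A pair of members mark epithelium. Cldn6, a tight junction protein of embryonic epithelia (chromosome 17, 23679249 to 23682446), had 6.50, 0.297 and 0.560 FPKM in the conditional knockout libraries, and 0.165, 0.0182 and 0.0272 FPKM in the controls. Epcam, the epithelial cell adhesion molecule (chromosome 17, 87635979 to 87651129), had 3.84, 0.428 and 0.617 FPKM in the conditional knockouts, and 0.344, 0.276 and 0.275 FPKM in the controls. Cldn6 was 11.6-fold and Epcam 6.23-fold above the highest other library.

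The remaining coding members are secreted signals, a receptor and an enzyme. Sostdc1, a secreted inhibitor of BMP and Wnt signals (chromosome 12, 36314139 to 36318452), had 4.96, 0.0916 and 0.15 FPKM in the conditional knockouts, and 0.146 FPKM in control replicate 1 with 0 listed in control replicates 2 and 3. Rspo2, a secreted enhancer of Wnt signals in lung and limb (chromosome 15, 43020794 to 43170826), had 3.35, 0.442 and 0.765 FPKM in the conditional knockouts, and 0.284, 0.251 and 0.353 FPKM in the controls. Sostdc1 was nearly confined to conditional knockout replicate 1, which held 92.7% of its summed FPKM, against 61.5% for Rspo2.

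Stra6, the membrane receptor for the retinol-binding protein (chromosome 9, 58063788 to 58153996), had 4.49, 0.673 and 0.743 FPKM in the conditional knockouts, and 0.558, 0.637 and 0.492 FPKM in the controls. Moxd1, a monooxygenase related to dopamine beta-hydroxylase (chromosome 10, 24223517 to 24302790), had 4.24, 0.866 and 0.798 FPKM in the conditional knockouts, and 0.480, 0.931 and 0.978 FPKM in the controls. Moxd1 had the smallest fold of the members, 4.34. AC124584.1, named Gm27320 in GENCODE release M21, is annotated as a miRNA gene of 109 bases (chromosome 8, 105307792 to 105307900). It was listed at 9.49 FPKM in conditional knockout replicate 1 and at 0 in the other 5 libraries. Of those bases, 99 lie in an exon of Elmo3 on the other strand, and Elmo3 stood between 0.919 and 1.11 FPKM in all 6 libraries. An exact 0 in such a table can be a failed estimate, so no fold is given.

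**Figure D2:**
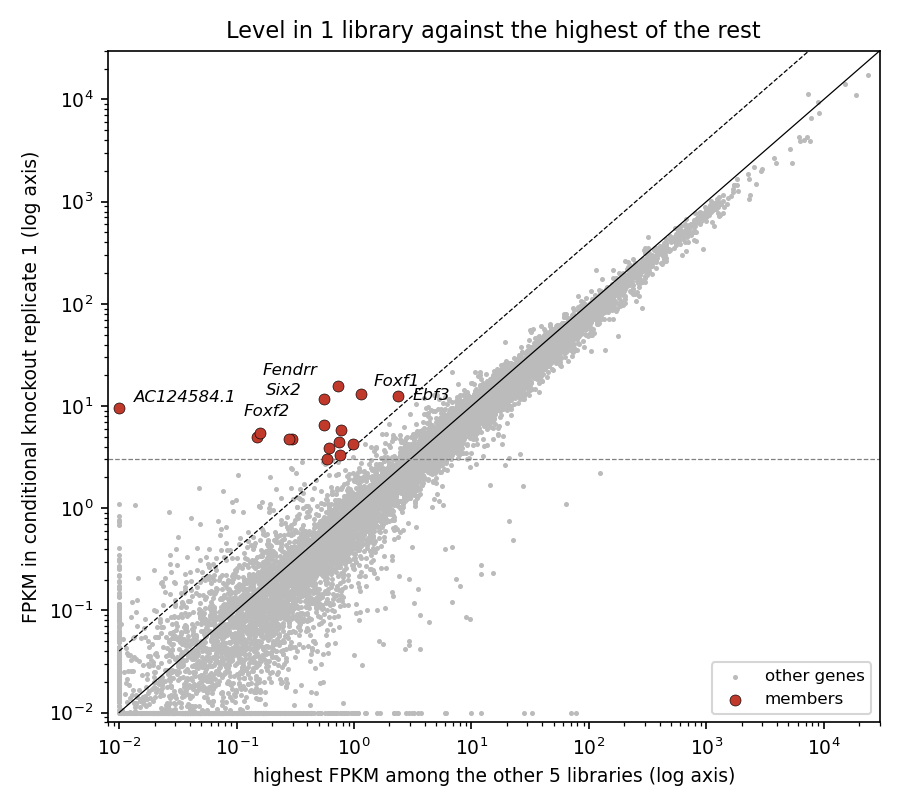
FPKM in conditional knockout replicate 1 (vertical, log axis) against the highest FPKM among the other 5 libraries (horizontal, log axis), 1 point per gene after the symbols were left out, with values under 0.01 drawn at 0.01. The solid line marks equal levels, the dashed lines the criteria of 4-fold and 3 FPKM, and the 16 members are the points that meet both.

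Just inside the fold criterion were Moxd1 at 4.34, Rspo2 at 4.38 and Gsc at 5.09, and just outside it Ptpru at 3.43, Twist2, a mesenchymal bHLH factor, at 3.39 and Lrig3 at 3.25. Just inside the level criterion were Gsc at 3.01, Rspo2 at 3.35 and Epcam at 3.84 FPKM. Just outside it were Angptl1 at 2.98 and the epithelial claudin Cldn7 at 2.84 FPKM. With the same rule and another library in the lead, 3 rows were found for conditional knockout replicate 2 (Alb and a pair of noncoding RNA rows), 1 for conditional knockout replicate 3, and 4, 3 and 1 for control replicates 1, 2 and 3. Before symbols were left out the counts were 40 for conditional knockout replicate 1, 14 and 16 for the other conditional knockouts, and 19, 22 and 12 for the controls. Much of the 40 rests on values of 0 that may be failed estimates. All 17 predicted genes left out were listed at 0 in the other 5 libraries, as were the small RNAs Snord13, Mirlet7d and Snora24. Among the rows left out were the Hox genes Hoxd3, Hoxa2 and Hoxa3, which pattern the hindbrain and the arches, at 6.76, 6.23 and 5.67 FPKM in conditional knockout replicate 1 and at no more than 1.53, 1.40 and 1.32 FPKM elsewhere.

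Marker lists of tissues were read in the same library to see where the members' known sites of expression lie. They describe the library that the rule used and carry no test. A list gene was counted as measured at 0.1 FPKM or more in at least 1 library. Over the 15348 such genes kept by symbol, conditional knockout replicate 1 was the highest of 6 in 19.1%, at least 4 times the highest other library in 0.886%, and the lowest of 6 in 19.9%.

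Endoderm of the foregut, pharynx and lung had the highest share, with the members counted and without them. Of its 15 measured markers, conditional knockout replicate 1 was highest in 14 and at least 4-fold above the rest in 10, among them the members Cldn6 and Epcam. Without these members 8 of 13 were at least 4-fold above the rest. With the members counted, the median difference from the median of the other 5 libraries was 2.34 on the log2(FPKM + 0.1) scale, against 0.00 over all genes. Nkx2-1, a factor of thyroid, lung and forebrain, had 2.50, 0.0352 and 0.289 FPKM in the conditional knockouts, and 0, 0.0119 and 0 FPKM in the controls. Shh, the hedgehog ligand of this epithelium, had 1.58, 0 and 0.0476 FPKM in the conditional knockouts and was listed at 0 in all 3 controls. Cdh1, the cadherin of epithelia, had 2.44, 0.294 and 0.0758 FPKM in the conditional knockouts, and 0.0968, 0.057 and 0.0122 FPKM in the controls. These are low levels in every library, and highest in the first conditional knockout library for each gene. Foxe1 of the thyroid and Foxn1 of the thymus reached 0.407 and 0.351 FPKM there, with at most 0.00937 FPKM for Foxe1 and 0 for Foxn1 elsewhere. Sftpc, the surfactant gene of differentiated lung, and Foxi3 were listed at 0 there. The summed level of the list was 55.9 FPKM there, between 34.9 and 38.4 FPKM in the other conditional knockouts, and between 34.8 and 38.3 FPKM in the controls. Krt19, a keratin on the epicardial list as well, was the 1 measured marker lowest in that library, at 20.9 FPKM against 28.4 to 32.9 FPKM elsewhere.

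The list of gut mesenchyme and spleen held 3 members, whose values the rule fixed. Of 9 measured markers, conditional knockout replicate 1 was highest in 8 and at least 4-fold above the rest in 4, which were the members Foxf1, Six2 and Foxf2 and the factor Nkx3-2 at 0.519 FPKM. Without the members 1 of 6 measured markers was at least 4-fold above the rest, a smaller share than the 4 of 12 of surface ectoderm. The median difference was 2.10. The sum of the list was 46.8 FPKM there, 5.52 and 6.92 FPKM in the other conditional knockouts, and 6.82, 5.74 and 5.38 FPKM in the controls. The 6 measured markers that are no members summed to 16.5 FPKM there, 4.30 and 5.23 FPKM in the other conditional knockouts, and 4.87, 4.91 and 4.43 FPKM in the controls. Isl1, a factor of the pharyngeal mesoderm that adds cells to the outflow tract and also of gut mesenchyme, had 10.5, 2.80 and 2.87 FPKM in the conditional knockouts, and 2.44, 3.35 and 3.05 FPKM in the controls. Spleen factor Tlx1 did not follow, with conditional knockout replicate 1 under the highest other library.

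Pharyngeal arch and craniofacial mesenchyme had 15 of 20 markers highest in conditional knockout replicate 1 and 4 at least 4-fold above the rest, among them the member Gsc and Pax9. The median difference of the list was 1.13. Its markers of highest level stood out little or not at all. Prrx2 was at 38.7 FPKM there and between 33.4 and 45.3 FPKM elsewhere. Prrx1 was 1.36-fold above the highest other library, and Msx1 and Msx2 were not highest there. Somite and skeletal muscle had 10 of 12 highest and 2 at least 4-fold (median 0.91), with the muscle factor Myog at 2.71 FPKM there and at most 0.571 FPKM elsewhere. Meox1, of higher level, was at 9.44 FPKM there and between 6.75 and 14.7 FPKM elsewhere. Cartilage and sclerotome had 9 of 12 highest and 3 at least 4-fold (median 0.92), with Pax1, which pharyngeal pouches and sclerotome express, at 2.11 FPKM there and at most 0.103 FPKM elsewhere. Surface ectoderm had 6 of 12 highest and 4 at least 4-fold (median 0.89). Several genes stand on more than 1 list. Six2 stands on those of gut mesenchyme and of the urogenital ridge, and not on that of the arches. On the urogenital list it was 1 of 2 markers at least 4-fold above the rest, and Lhx1 and Nr5a1 were listed at 0 there.

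The neural, limb and remaining lists were read in the same way. The list of central nervous system progenitors had 7 of 13 markers highest in conditional knockout replicate 1 and 1 at least 4-fold above the rest (median 0.75). Sox1, Otx2, Hes5 and Dbx1 were listed at 0 there. Neurons had 10 of 18 highest and 3 at least 4-fold (median 0.68), each of these 3 at 0.238 FPKM or less. Limb bud had 4 of 12 highest and 1 at least 4-fold, Shh (median 0.45). The list of pancreas and gut endoderm had 2 of 5 highest and none at least 4-fold, with Pdx1, Ptf1a, Cdx1, Cdx2 and Ins2 at 0. Neural crest with glia and melanocytes had 6 of 11 highest and 1 at least 4-fold, Tfap2b at 0.694 FPKM (median 0.71). Sensory placodes had 3 of 5 highest, macrophages 2 of 8 and erythroid cells none of 8, and these lists had none at least 4-fold.

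**Figure D3:**
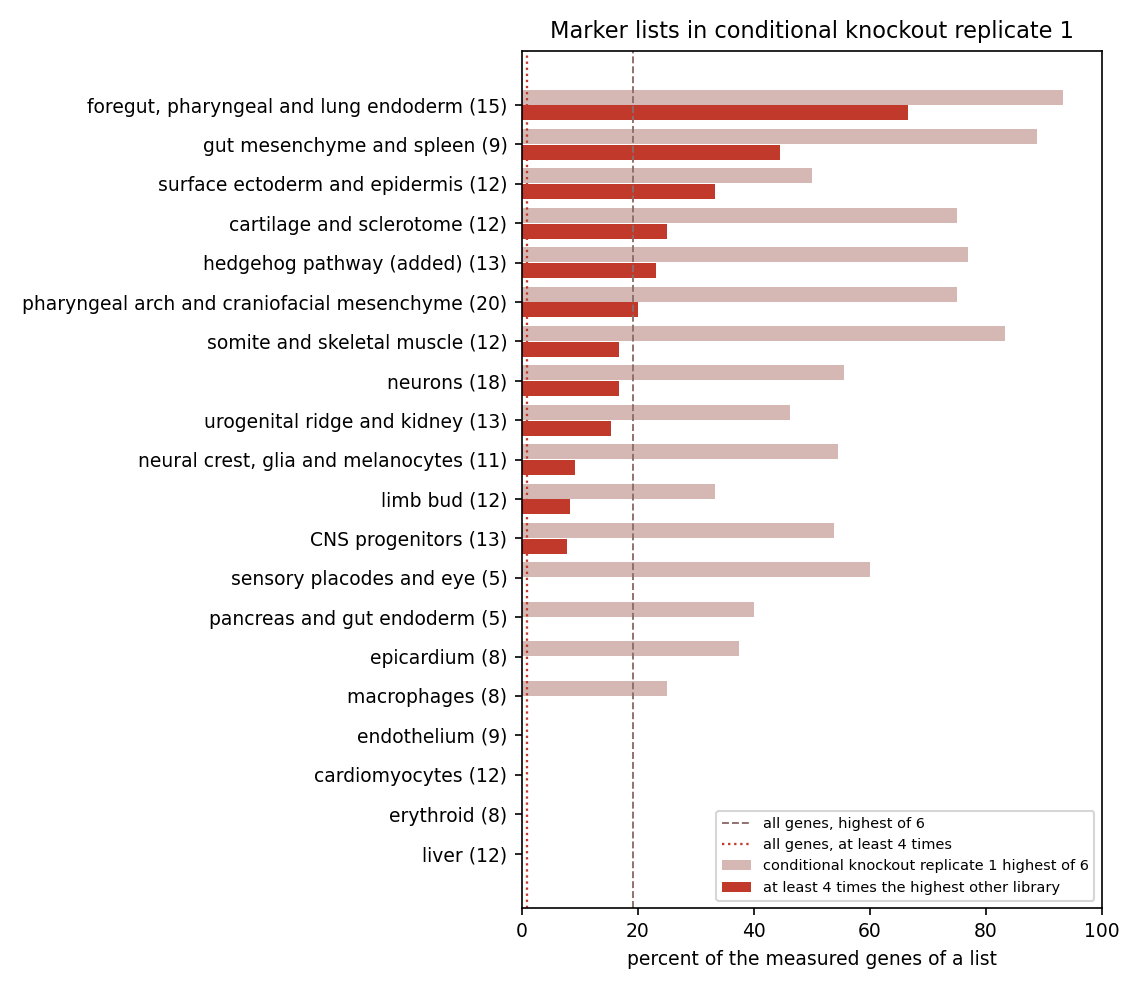
Percent of the measured genes of each marker list (number in brackets) for which conditional knockout replicate 1 was the highest of 6 libraries (light bars) or at least 4 times the highest other library (dark bars); the vertical lines give the same over all genes, 19.1% and 0.886%. Foregut endoderm (10 of 15 genes at least 4-fold) and gut mesenchyme (4 of 9) have the longest dark bars, with 2 and 3 members among those genes, and the lists of liver, erythroid cells, cardiomyocytes and endothelium have none.

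Liver, blood and the heart's own cells differed from these. No liver marker was highest in conditional knockout replicate 1: the sum of the 12 was 10.6 FPKM there, 275 and 4.68 FPKM in conditional knockout replicates 2 and 3, and 105, 27.8 and 34.5 FPKM in the controls. Of 12 cardiomyocyte markers, 11 were lowest of 6 in conditional knockout replicate 1, and their sum was 10661 FPKM there, 17232 and 16288 FPKM in the other conditional knockouts, and 14423, 17086 and 16559 FPKM in the controls. Myl2, the ventricular myosin light chain, had 4047 FPKM there and at least 5679 FPKM in each other library. Of 9 endothelial markers, with the deleted gene Tek among them, 5 were lowest there. The sum of the 9 was 208, 230 and 206 FPKM in the conditional knockouts, and 277, 311 and 287 FPKM in the controls. Both conditional knockout replicates 2 and 3 lay below every control in 7 of the 9, the deleted gene Tek included. The same held for 12.4% of the 16848 genes kept by symbol and above 0 in 1 of these 5 libraries. The low endothelial sum was thus shared by the 3 conditional knockouts. For the epicardial list, conditional knockout replicate 1 had a sum of 195 FPKM, and the other libraries lay between 192 and 208 FPKM. The part of any of these tissues in the levels of the 16 members was not tested. That conditional knockout replicates 2 and 3 did not share those levels was fixed by the rule.

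**Figure D4:**
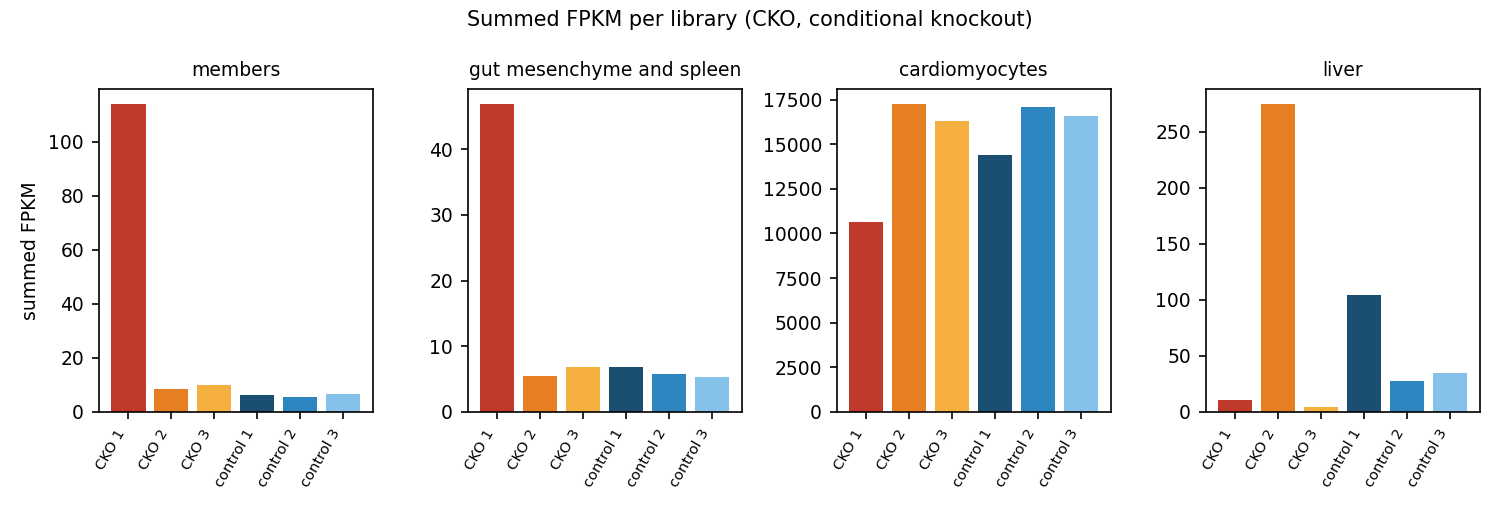
Summed FPKM per library (bars, each panel with its own axis from 0) for the 16 members and for the marker lists of gut mesenchyme and spleen, cardiomyocytes and liver, with conditional knockout (CKO) libraries left of controls. The members and gut mesenchyme are highest in CKO 1 (114 and 46.8 FPKM), cardiomyocyte markers are lowest there (10661 FPKM), and liver markers are highest in CKO 2 (275 FPKM). The gut mesenchyme bars include 3 members, whose values the rule fixed. Without them the sum is 16.5 FPKM in CKO 1 and between 4.30 and 5.23 FPKM elsewhere.

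The genes of hedgehog signalling were listed after Gli1 was seen among the members, so their values are a description chosen with that in view. Of 14 genes, 13 were measured, and conditional knockout replicate 1 was highest in 10 and at least 4-fold above the rest in 3: the ligand Shh, the ligand-binding inhibitor Hhip and Gli1. Hhip had 1.04, 0.0668 and 0.157 FPKM in the conditional knockouts, and 0.114, 0.0225 and 0.0254 FPKM in the controls. The receptor and target gene Ptch1 had 8.33, 3.92 and 3.87 FPKM in the conditional knockouts, and 2.84, 3.65 and 3.54 FPKM in the controls. The transducer Smo had 22.9, 17.4 and 15.5 FPKM against 18.2, 19.3 and 17.1 FPKM, and its fold over the highest other library was 1.18. The largest folds were thus in the ligand and in genes that respond to it, and those of Smo, Gli3 (1.12) and Cdon (1.01) were close to 1. Dhh, the ligand of Schwann and endothelial cells, was not highest there.

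What the rule did not use is the difference between groups among the other 5 libraries, and it was tested with limma on log2(FPKM + 1) for conditional knockout replicates 2 and 3 against the 3 controls. Of 12941 genes averaging 1 FPKM or more, 7 were called higher (0.0541%) and 6 lower (0.0464%) at an adjusted p under 0.05, and none was a member. All 7 called higher were listed at 0 in all 3 controls, among them 4 mitochondrial genes, so that whole count rests on values that may be failed estimates. Of the members, Ebf3 alone passed the filter on low values, by 0.37 ± 0.21 on the log2 scale (SE; limma, adjusted p = 0.723, unadjusted p = 0.131). At an unadjusted p under 0.05, 2.49% of those genes were higher and 4.26% lower. Without control replicate 3, Ebf3 had an unadjusted p of 0.0283 and an adjusted p of 0.538 in limma. With no filter, 15 members entered a fit of 22970 genes, of which 6 were called higher (0.0261%), and again none was a member, at adjusted p values between 0.651 and 0.952. At an unadjusted p under 0.05 in limma, 7 of the 15 were higher and 1, Tbx1, was lower, against 3.17% and 3.20% of all genes tested there. Members may vary together between libraries, so they are not separate readings of the groups. In a fit of all 6 libraries, which includes the values the rule used, 7 genes were called higher (0.0539%) and 16 lower (0.123%), and none of the 9 members tested. With no filter and a pseudocount of 0.1, added after the data were seen, 3 of the 15 had an unadjusted p under 0.05.

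The order of these 5 libraries was read for each member as well. In 8 of the 15 members above 0 there, among them Fendrr, Cldn6, Gli1, Stra6, Epcam, Rspo2 and Gsc, both remaining conditional knockout libraries stood above every control. The same held for 12.5% of the 16848 genes above 0 in these libraries, and for 13.3% of the 3790 genes whose mean over the 5 libraries lay in the range of the members, from 0.0775 to 1.85 FPKM. Tbx1 alone lay the other way, with both below every control, which held for 12.4% and 9.79% of the same genes. The largest of these differences were Fendrr, at 0.45 ± 0.11 (SE, limma, no filter, adjusted p = 0.682), and Cldn6, at 0.41 ± 0.11 (SE, adjusted p = 0.682). Conditional knockout replicate 3 was the highest of the 5 in 7 members, conditional knockout replicate 2 and control replicate 1 in 3 each, and control replicate 3 in 2. The members may vary together, and the series text gives the libraries as portions of pooled RNA. These counts thus do not measure a difference between genotypes.

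**Figure D5:**
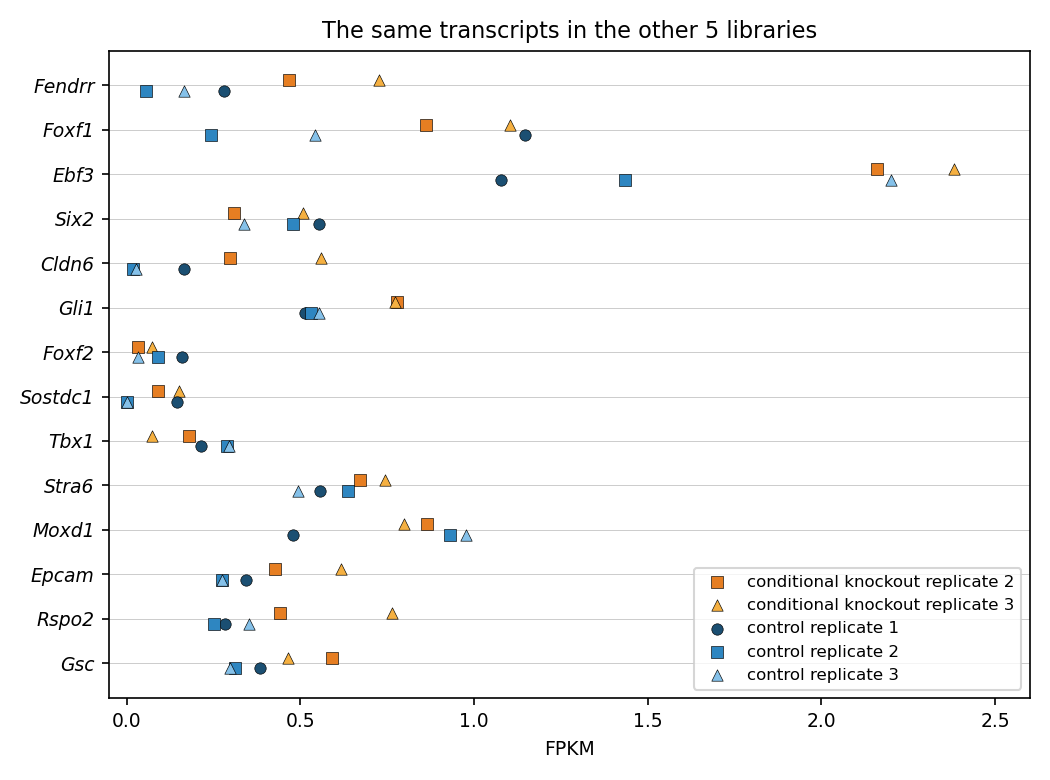
FPKM of 14 of the 15 members above 0 in the 5 libraries other than conditional knockout replicate 1 (linear axis, 1 point per library, conditional knockouts just above controls). In 7 of the members drawn both conditional knockout points lie right of all 3 controls, Tbx1 shows the reverse, and most points lie under 1 FPKM.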

How the data were processed

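RNA of whole mouse hearts was sequenced in 3 conditional knockout and 3 control libraries, made with an Illumina TruSeq kit per the labels. The authors deposited 1 table of FPKM values; the build mm10 and the tools TopHat2 (2.0.9), HTSeq, Cuffdiff and Cufflinks (2.2.1) stand, without their roles, in the submitters' processing notes. For annotation release and strand setting, nothing is given in the sources used here; overlapping genes are uncertain, and FPKM shifts with a few very abundant transcripts.

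Members were found by level and fold on the deposited values. Differences among the other 5 libraries were tested with limma version 3.58.1 (R 4.3.3) with an intensity trend, on log2(FPKM + 1), at a mean of at least 1 FPKM, with no block and Benjamini-Hochberg adjustment over all genes tested, after a test on simulated data. FPKM is no count, so a fold change on this scale understates that of low genes. Named were all members, rows next to each criterion, and some marker genes. The marker genes were named for their level or for their fold in conditional knockout replicate 1. Those named can thus stand higher there than their lists do. The members, lists and tests were chosen with earlier results of these data known. Coordinates of genes are those of GENCODE release M21 (GRCm38), in which all 16 identifiers were found, and promoters from RefSeq (GRCm38.p6). Alternatives varied the criteria, filter, pseudocount, scaling, block and libraries. Values of 1 member and of a few listed genes are not reported here by name, though counts and sums include them.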

Additional observations from a re-analysis of the deposited data

How the results depend on the processing

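The rule found 25 rows at a minimum of 2 FPKM, 8 at 5 FPKM and, in an alternative added after the data were seen, 40 with no symbol left out. It found 23 at 3-fold, and 12 each at 6-fold and with 0.5 added to each FPKM. Upper quartile scaling gave the same 16. Leaving out any 1 of the other 5 libraries, which can only add rows, gave 16 or 17, the 17th being Ptpru without control replicate 1.

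The count of members called in conditional knockout replicates 2 and 3 against controls was 0 in each fit, but most fits tested Ebf3 alone: 15 members were tested with no filter, 9 with all 6 libraries and 0 at a minimum of 5 FPKM. Over all genes, the calls in limma were 7 higher and 6 lower. Without 1 library they ranged from 6 to 20 higher and from 1 to 8 lower, with 20 and 14 higher without conditional knockout replicates 2 and 3, where the lone remaining library is assumed to vary like the controls. Lower calls numbered 0 with no filter (736 at an unadjusted p under 0.05), 3 with no filter and a pseudocount of 0.1, 10 at a minimum of 5 FPKM, 17 with quantile normalization and 16 with all 6 libraries. With the replicate number as a block the counts were 7 higher and 2 lower; replicates 2 and 3 alone are shared by both groups in this fit. Over all 6 libraries, deviations of same-numbered libraries correlated at 0.19, 0.031 and 0.23 for replicates 1, 2 and 3 over 12988 genes, and at 0.27, 0.11 and 0.44 over the 12805 above 0 in all 6. The correlations were positive in both sets of genes and larger in the second. At an unadjusted p under 0.05 in limma, the block gave 990 higher and 1473 lower, against 322 and 551 without it. Whether the numbers pair the samples was not settled, and the fit without the block was kept. The causes were not tested. Unknown depth limits all levels under 1 FPKM.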
